A study of Homo sapiens with 9 samples.

Results

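Interferon-stimulated genes and the genes of MHC class I antigen presentation were followed in N/TERT cells, an epidermal keratinocyte line of human origin that telomerase keeps dividing. The members were chosen by name, as 33 antiviral genes and 14 presentation genes, and all 47 were found among the 60671 genes of the count files. Of these, 43 had enough reads to be tested, 29 antiviral and 14 presentation genes. The cells formed 3 groups of 3 libraries each, and all received no treatment. Control cells were labelled WT. KO cells carried a CRISPR knockout of SGPL1, the gene of sphingosine-1-phosphate lyase. OE cells overexpressed SGPL1. The number of clones behind the KO and OE lines, the overexpression promoter and any vector in the control cells are not stated by the sources at hand. Libraries of a group are described as biological replicates, with no mention of separate cultures or clones, so the p-values measure the spread between these libraries.

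Interferons are secreted antiviral signals. Type I and type III interferons act through JAK kinases and a complex that holds STAT2 and IRF9 on genes that carry an interferon-stimulated response element (ISRE), and interferon-gamma acts on gamma-activated sequences (GAS) and through IRF1. Many of the induced proteins block steps of viral replication. In antigen presentation, the immunoproteasome cuts proteins to peptides, the TAP transporter moves them into the endoplasmic reticulum, ERAP enzymes trim them, and tapasin loads them onto a class I heavy chain paired with beta-2 microglobulin. Keratinocytes express class I genes without stimulation and raise them in response to interferon.

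Promoters of the members were read for these 2 elements. RefSeq promoters (GRCh38.p14) were matched for 28 of the 47 members, and the 250 bases before each start were searched on both strands for an ISRE pattern (GAAA, 2 bases of any kind, GAAA) and a GAS pattern (TTC, 3 bases of any kind, GAA). The ISRE letters were present in 12 of 20 antiviral promoters (60.0%) and in 5 of 8 presentation promoters (62.5%), against 3.02% of 35116 promoters of the same length. The GAS letters were present in 7 of 20 antiviral promoters (35.0%) and in none of the 8 presentation promoters, against 6.57% of all promoters. In 1 member, BST2, the 2 motifs overlapped. The 6 sequences that follow were chosen because their genes moved differently in the cells: B2M was higher in KO cells, OAS3 and TAP2 were lower in KO cells, IFITM3 was lower in OE cells, IRF1 went in opposite directions in KO and OE cells, and ISG15 passed no test. Each is the 250 bases upstream of the RefSeq start, 5′ to 3′ on the gene's strand. Capitals mark the ISRE letters in the first 5 and the GAS letters in IRF1.

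B2M, chr15:44711267-44711516, plus strand: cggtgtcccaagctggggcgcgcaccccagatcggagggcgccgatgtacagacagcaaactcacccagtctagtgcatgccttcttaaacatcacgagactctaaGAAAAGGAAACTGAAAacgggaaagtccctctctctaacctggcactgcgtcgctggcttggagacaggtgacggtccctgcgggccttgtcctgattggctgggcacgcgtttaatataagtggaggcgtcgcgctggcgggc

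TAP2, chr6:32838740-32838989, minus strand: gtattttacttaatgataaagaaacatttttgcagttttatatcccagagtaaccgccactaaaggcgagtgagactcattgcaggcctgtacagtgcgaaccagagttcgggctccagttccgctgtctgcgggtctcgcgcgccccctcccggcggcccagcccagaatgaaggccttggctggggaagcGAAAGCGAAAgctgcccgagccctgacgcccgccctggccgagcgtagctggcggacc

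OAS3, chr12:112938224-112938473, plus strand: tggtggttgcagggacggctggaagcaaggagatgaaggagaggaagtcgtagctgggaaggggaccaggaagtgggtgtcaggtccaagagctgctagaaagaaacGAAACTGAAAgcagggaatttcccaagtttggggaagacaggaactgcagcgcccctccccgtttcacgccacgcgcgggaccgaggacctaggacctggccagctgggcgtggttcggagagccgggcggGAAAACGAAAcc

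IFITM3, chr11:320861-321110, minus strand: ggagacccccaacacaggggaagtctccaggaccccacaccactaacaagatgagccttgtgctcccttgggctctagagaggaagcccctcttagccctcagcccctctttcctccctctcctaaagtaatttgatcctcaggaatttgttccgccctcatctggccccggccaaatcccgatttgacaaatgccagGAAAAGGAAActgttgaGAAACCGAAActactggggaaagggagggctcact

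ISG15, chr1:1013247-1013496, plus strand: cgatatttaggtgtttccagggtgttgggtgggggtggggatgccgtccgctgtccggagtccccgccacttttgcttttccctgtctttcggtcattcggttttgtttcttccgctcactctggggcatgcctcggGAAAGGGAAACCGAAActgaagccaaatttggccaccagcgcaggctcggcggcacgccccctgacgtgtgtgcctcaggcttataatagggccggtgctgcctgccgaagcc

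IRF1, chr5:132490774-132491023, minus strand: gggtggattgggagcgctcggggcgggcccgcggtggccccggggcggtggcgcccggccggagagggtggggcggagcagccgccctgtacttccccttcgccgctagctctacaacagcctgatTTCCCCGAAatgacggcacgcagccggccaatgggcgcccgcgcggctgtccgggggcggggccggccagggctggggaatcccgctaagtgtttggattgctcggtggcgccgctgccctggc

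Within these 250 bases, B2M held overlapping ISRE matches that began 144 and 138 bases before the start, and ISG15 held overlapping matches at 113 and 107 bases. OAS3 matched at 143 and 12 bases, IFITM3 at 52 and 35 bases, TAP2 at 58 bases, and IRF1 held its GAS match at 124 bases. A match describes letters and no binding was measured. The same letters stood before genes that were higher, lower or not changed: of 15 tested members with ISRE letters, 4 were higher, 4 lower and 7 not passed in KO against control cells, and of 10 tested members without them 3 were higher, 2 lower and 5 not passed. Over all 13390 tested genes 26.0% were higher and 25.9% lower in this comparison, so these shares are close to the background.

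SGPL1 itself followed the labels in direction. Its level, as counts scaled to library size by TMM (CPM), was 83.9, 95.1 and 98.3 CPM in control, 58.8, 58.3 and 61.6 CPM in KO and 1132, 1104 and 929 CPM in OE libraries. The KO libraries were all lower than control and the OE libraries all higher. The KO libraries kept a mean of 59.6 CPM against 92.5 CPM in control, so this RNA level does not by itself show the knockout. The log2 fold changes were -0.64 ± 0.09 (SE) in KO and 3.51 ± 0.09 in OE cells, with adjusted p = 5.14e-06 and 4.90e-18 by edgeR's quasi-likelihood test. With a trend over gene length and GC content removed, described below, the KO value was -0.46 (adjusted p = 7.39e-05 by the same test). Errors of log2 fold changes are standard errors throughout, with n = 3 libraries per group.

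The libraries summed to 6317564 to 13330479 counts. Keratinocyte markers were abundant in all of them, with all 10 tested and summed levels of 30631 to 31137 CPM in control, 16264 to 17299 CPM in KO and 34351 to 36499 CPM in OE libraries, so their sum was lowest in the KO libraries. The part of this and the other marker shifts in the results for the members was not tested. In bulk RNA, fewer cells of a type and less RNA per cell cannot be told apart. Fibroblast markers (1 of 9 tested) summed to 21.5 to 28.5 CPM in control, 8.79 to 15.1 CPM in KO and 24.5 to 28.8 CPM in OE libraries, with COL3A1 and LUM at 0. The tested gene, COL1A1, had means of 25.6 CPM in control, 11.2 CPM in KO and 26.0 CPM in OE libraries. Markers of blood and immune cells (1 of 10 tested) summed to 2.53 to 5.02 CPM in control, 5.72 to 7.78 CPM in KO and 0.885 to 1.90 CPM in OE libraries, with PTPRC, CD3E and CD68 at 0. Melanocyte markers (2 of 7 tested) summed to 89.7 to 101 CPM in control, 69.2 to 76.5 CPM in KO and 60.0 to 71.4 CPM in OE libraries, with TYR, DCT and SOX10 at 0. Of the tested genes, MITF had means of 94.0, 71.1 and 62.5 CPM in control, KO and OE libraries, and PMEL 1.80, 1.74 and 1.17 CPM. The fibroblast, immune and melanocyte sums thus rest mostly on single genes, so they do not show shifts of those cell types. Endothelial markers (0 of 6 tested) summed to 0.292 to 2.03 CPM, with PECAM1, TEK and CLDN5 at 0. Fold changes of all genes in KO against control cells followed transcript length, with a median of 0.52 (log2) in the shortest decile of genes and -0.45 in the longest. Values with this trend with length and GC content removed are given beside the results they change. OE replicate 3 differed most from its partners, by a chi-square over its degrees of freedom of 10.9 to 11.7 against 2.74 to 6.63 for other replicate pairs. It was also the deepest library, at 13330479 counts. The chi-square was taken on raw counts and grows with depth, so the part of depth in this difference was not separated.

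In KO against control cells, 7 of 14 presentation genes were higher and 1 lower, and antiviral genes moved both ways, with 7 of 29 higher and 6 lower. The presentation genes that rose were the class I chains B2M, HLA-C and HLA-E, the immunoproteasome subunits PSMB8 and PSMB10, the trimming enzyme ERAP2 and the transporter chain TAP1, and TAP2 fell. Of the antiviral genes, IFITM2, UBE2L6, IFI6, IRF1, IFIT2, OAS1 and IFIT5 rose, and OAS3, OAS2, STAT2, IFIH1, PARP14 and HERC6 fell. These 21 calls compare with 51.9% called among all 13390 tested genes (26.0% higher, 25.9% lower), so the share of members called, 21 of 43, was near the background. With the length and GC trend removed, the counts were 7 higher and 1 lower for presentation and 4 higher and 5 lower for antiviral genes, against 24.8% higher and 20.7% lower (45.6% in all) over all genes. The KO libraries did not overlap the control libraries in 24 members, 17 higher and 7 lower, against 59.5% of all genes (30.0% higher, 29.4% lower). The median log2 fold change was 0.33 for presentation and 0.30 for antiviral genes, with -0.00 over all genes. After correction the medians were 0.34 and 0.07. Of the changes, 2 presentation genes and 2 antiviral genes were at least 2-fold higher, and none was 2-fold lower, against 6.36% higher and 6.52% lower over all genes (12.9% in all).

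**Figure D1:**
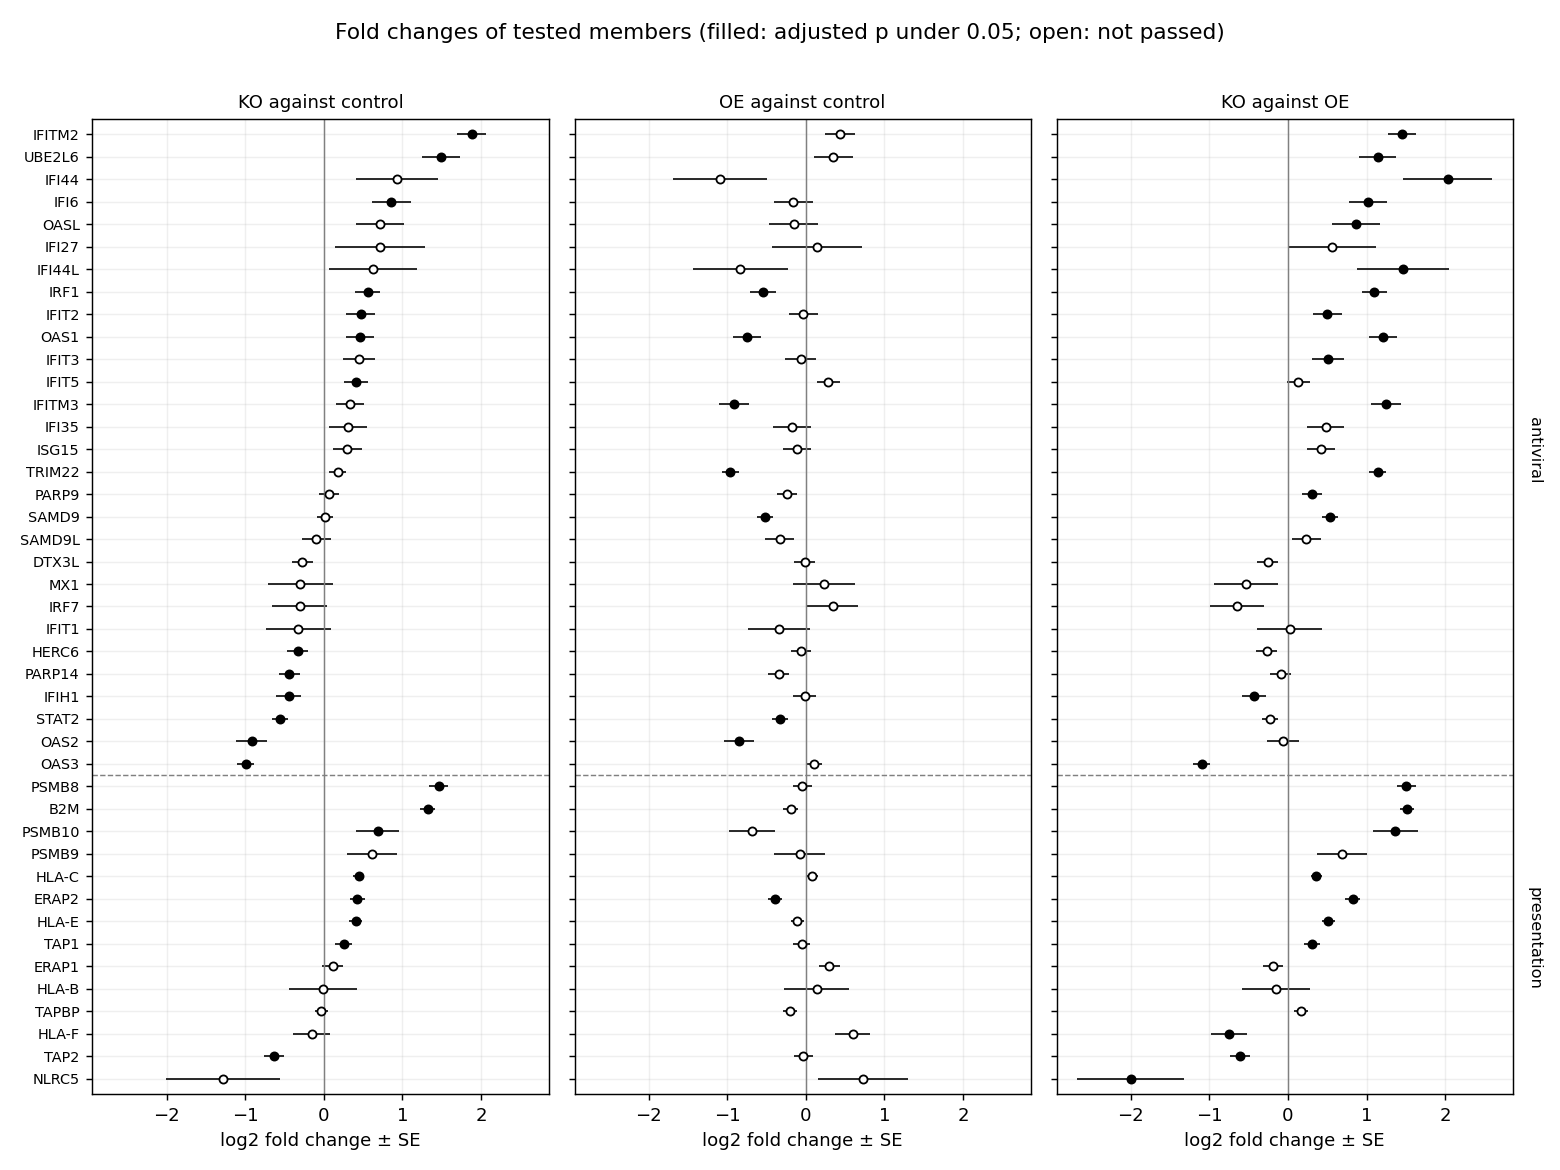
Log2 fold changes with SE (x axis) of the 43 tested members in each comparison, filled where the adjusted p was under 0.05 and open where it was not. In the KO against control panel, filled points right of 0 are the 14 members called higher. There are 21 in the KO against OE panel and none in the OE against control panel.

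The SGPL1-overexpressing cells were measured against the same control libraries, so their comparison shares those libraries with the KO comparison. No member was higher in OE cells and 8 were lower: the antiviral genes TRIM22, IFITM3, OAS2, OAS1, IRF1, SAMD9 and STAT2 (7 of 29) and the presentation gene ERAP2 (1 of 14). Over all tested genes 18.6% changed, 9.28% higher and 9.34% lower. The median log2 fold change was -0.16 for antiviral genes and -0.05 for presentation genes. The count of 0 higher was by edgeR, and DESeq2 and limma-voom gave 0 as well. At an unadjusted p under 0.05 by edgeR, 15 members passed, 3 of them higher (IFITM2, ERAP1 and HLA-F). The share of all genes at this threshold was not computed, so this count cannot be read as a result about the members. The OE and control libraries did not overlap in 13 members, 2 higher and 11 lower, against 34.8% of all genes (17.2% higher, 17.6% lower). No member was called at 2-fold or more, against 3.37% of all genes (1.46% higher, 1.90% lower). With the trend removed, 8 members were lower and 0 higher, against 10.5% and 10.7% (21.2% in all) over all genes. Summed over the 33 antiviral genes, the level was 1226, 1174 and 1205 CPM in control, 1189, 1256 and 1182 CPM in KO and 1055, 902 and 805 CPM in OE libraries. The antiviral sums were lowest in the OE libraries, and SAMD9 alone made up 639 CPM of the control mean. Summed over the 14 presentation genes, the level was 1225, 1241 and 1214 CPM in control, 1877, 1905 and 1904 CPM in KO and 1202, 1102 and 1197 CPM in OE libraries. These sums were higher in every KO library than in any other, and B2M alone made up 267 CPM of the control mean and 668 CPM of the KO mean.

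The KO and OE groups were also set against each other, which tests the difference between them directly. In KO against OE cells, 14 of 29 antiviral genes were higher and 2 lower, and 7 of 14 presentation genes were higher and 3 lower, where 57.6% of all genes were called (28.6% higher, 29.0% lower). The median log2 difference was 0.48 for antiviral and 0.33 for presentation genes. With the length and GC trend removed, 11 antiviral genes were higher and 3 lower, with a median of 0.26, and 8 presentation genes were higher and 2 lower, with a median of 0.43 (53.1% of all genes called, 28.0% higher and 25.1% lower). At 2-fold or more, 12 members were higher and 2 lower, against 18.4% of all genes (9.48% higher, 8.95% lower). Libraries did not overlap in 19 higher and 7 lower members, against 61.6% of all genes (30.5% higher, 31.1% lower).

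**Figure D2:**
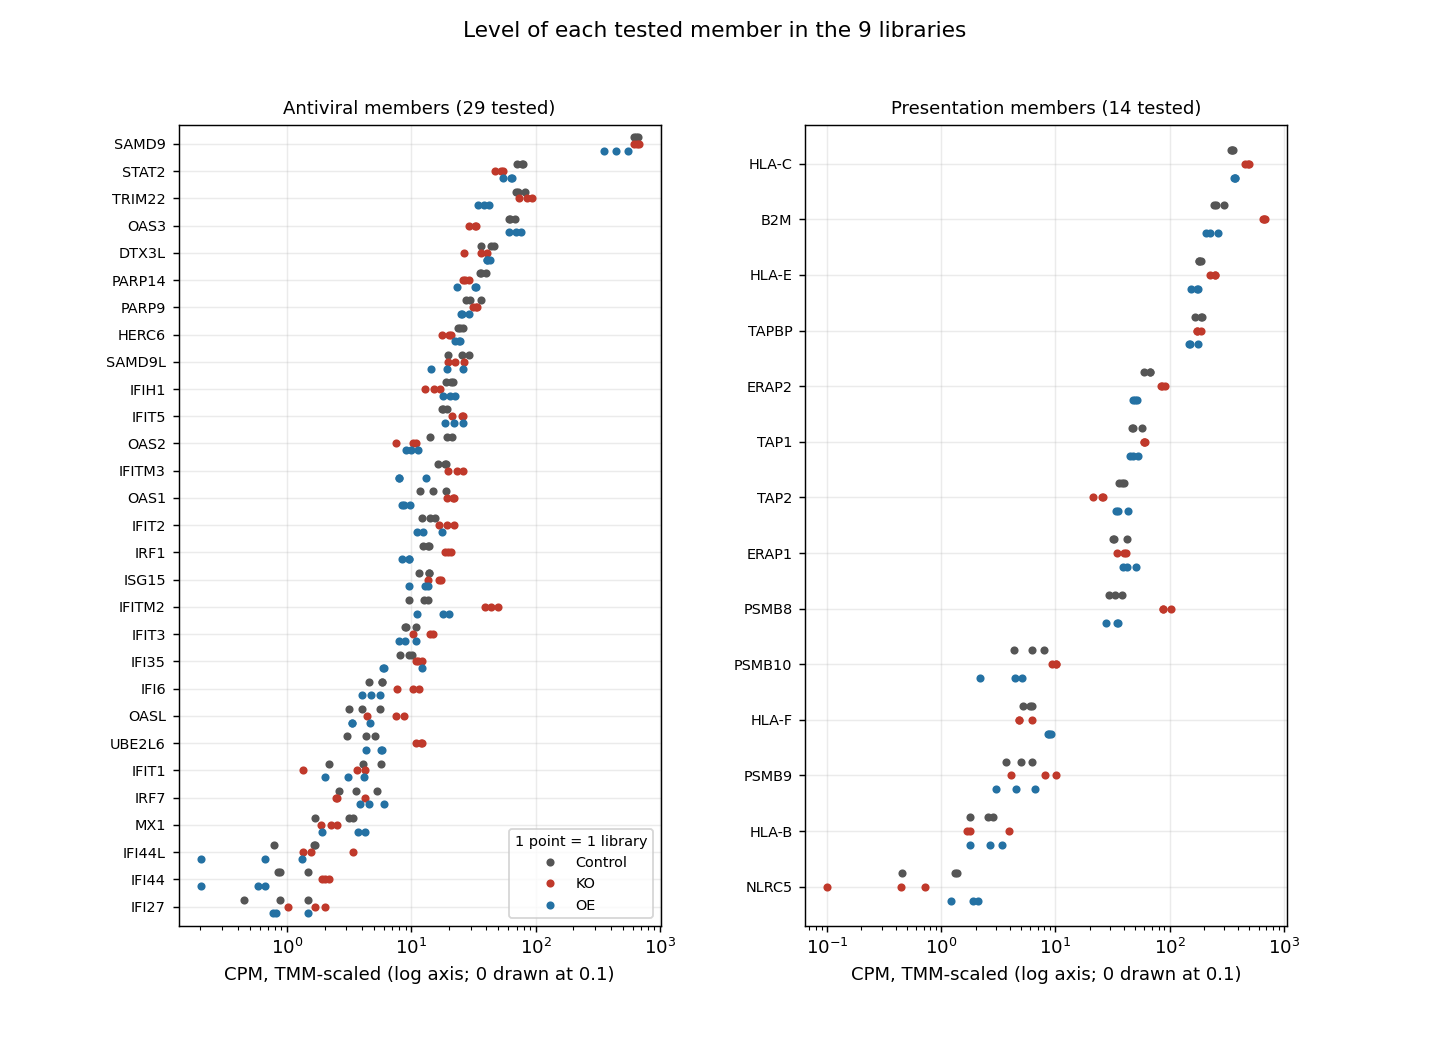
Level of each tested member in CPM (log x axis, 0 drawn at 0.1), with 1 point for each of the 9 libraries. Among presentation genes the KO points of B2M and PSMB8 lay clear of the control and OE points.

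Of 5 class I chains, 3 rose in KO cells, B2M most. Beta-2 microglobulin (B2M), the light chain shared by all class I molecules (ENSG00000166710, chromosome 15, 44711487 to 44718877 on GRCh38), measured 301, 255 and 246 CPM in control, 664, 654 and 685 CPM in KO and 226, 207 and 267 CPM in OE libraries. Every KO library lay above every other library, and the control and OE ranges overlapped. B2M was 2.50-fold higher in KO than in control cells (log2 fold change 1.32 ± 0.09, adjusted p = 9.80e-11), and the OE value was -0.19 ± 0.09 (adjusted p = 0.158). Against OE cells the KO level was 2.86-fold higher (1.52 ± 0.09, adjusted p = 5.19e-12). Without OE replicate 3 the OE value was -0.30 with adjusted p = 0.0143, so it was called only without that library. The heavy chain HLA-C, the most abundant member per kilobase in control cells at 140.3 CPM per kb, measured 344, 359 and 353 CPM in control, 456, 489 and 492 CPM in KO and 374, 369 and 374 CPM in OE libraries. The KO libraries did not overlap the others, and HLA-C rose by 0.44 ± 0.07 in KO cells (adjusted p = 1.74e-05), with 0.36 ± 0.07 against OE cells (adjusted p = 0.000153). HLA-E, a heavy chain that presents leader peptides to natural killer cell receptors, rose by 0.41 ± 0.08 (adjusted p = 0.000165), from 183 ± 4.47 (SD) to 242 ± 13.9 CPM, with 0.52 ± 0.08 against OE cells (adjusted p = 7.20e-06). Neither heavy chain passed the test in OE against control cells.

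The less abundant class I genes behaved otherwise. HLA-F, a heavy chain also recognised by natural killer cell receptors, measured 5.24, 6.004 and 6.29 CPM in control, 4.82, 4.82 and 6.26 CPM in KO and 9.19, 8.57 and 8.75 CPM in OE libraries, all OE libraries being higher. Its OE change of 0.59 ± 0.22 missed the threshold (adjusted p = 0.064), and it was lower in KO than OE cells (-0.75 ± 0.23, adjusted p = 0.0074). About 28% of HLA-F's exon bases are shared with 3 other annotated genes, which makes its count uncertain. HLA-B lay at 2.40 ± 0.55 CPM in control, 2.46 ± 1.24 in KO and 2.63 ± 0.83 in OE cells and passed no test. HLA genes share sequence. Of their 75-base stretches, 0.296% for HLA-B, 1.3% for HLA-C, 1.67% for HLA-E and 0.168% for HLA-F occur in annotated transcripts of another gene. The header's command records no option for reads that fit several genes, so HLA levels and differences remain uncertain. NLRC5, the transactivator of class I genes, was scarce, with means of 1.04 CPM in control, 0.391 in KO and 1.74 in OE cells. The KO library 3 had no NLRC5 reads. It was lower in KO than OE cells (-2.003 ± 0.68, adjusted p = 0.0145), a call that was lost without KO replicate 3 (-1.56, adjusted p = 0.0605) and when the length and GC trend was removed (-1.40, adjusted p = 0.0906).

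Of the immunoproteasome's 3 inducible subunits, which replace constitutive ones, 2 rose in KO cells, PSMB8 most. PSMB8, the inducible chymotrypsin-like subunit (ENSG00000204264, chromosome 6, 32840717 to 32844679), measured 29.4, 38.0 and 33.3 CPM in control, 86.9, 103 and 87.4 CPM in KO and 34.5, 27.9 and 34.9 CPM in OE libraries. KO libraries were all more than 2-fold above the others. The change in KO cells was 2.75-fold (1.46 ± 0.12, adjusted p = 7.98e-10), and KO against OE it was 1.51 ± 0.12 (adjusted p = 2.03e-10). PSMB8-AS1 and PSMB9 together share 17.3% of PSMB8's exon bases, and another annotated gene shares 39.4% of PSMB10's. PSMB10 (trypsin-like subunit) measured 6.22, 4.32 and 7.87 CPM in control, 10.1, 9.31 and 10.1 CPM in KO and 5.09, 4.44 and 2.19 CPM in OE libraries. The KO libraries were highest, but the KO call of 0.68 ± 0.28 (adjusted p = 0.0438) was lost when the length and GC trend was removed (0.42, adjusted p = 0.231) and without control replicate 1 or 2 or any KO replicate (adjusted p = 0.0693 to 0.202). It was higher in KO than OE cells by 1.37 ± 0.29 (adjusted p = 0.000312). PSMB9, which takes the place of PSMB6, had means of 4.96 CPM in control, 7.45 in KO and 4.73 in OE cells and passed no test.

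Constitutive partners PSMB5, PSMB6 and PSMB7 rose as well in KO cells, 3 of 3 against 26.0% of all genes, with PSMB5 at 0.54 ± 0.10 and PSMB7 at 0.56 ± 0.10. With the trend removed PSMB5 was at 0.14 (adjusted p = 0.123) and PSMB7 at 0.20 (adjusted p = 0.0397). Per kilobase, PSMB8 stood at 7.23%, 10.9% and 9.57% of PSMB5 in control libraries, 17.3%, 19.3% and 15.3% in KO libraries and 11.4%, 9.90% and 9.43% in OE libraries. The share was highest in the KO libraries, given as a description with no test. PSMB9 per PSMB6 overlapped between all groups. PSMB10 per PSMB7 overlapped between control libraries and either other group, at 4.53% to 4.64% in KO libraries and 1.36% to 4.19% in OE libraries.

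Peptide transport and trimming were split. TAP1 and TAP2 form the peptide pump. TAP1 measured 47.9, 57.0 and 47.1 CPM in control, 59.8, 60.0 and 61.4 CPM in KO and 44.9, 48.0 and 53.3 CPM in OE libraries. It passed the test in KO cells by a narrow margin (0.25 ± 0.11, adjusted p = 0.049), a call lost without control replicate 1 or 3, any KO replicate or OE replicate 2 (adjusted p = 0.0581 to 0.191), while with the trend removed it was 0.46 (adjusted p = 0.000449). In KO against OE cells it was 0.30 ± 0.10 (adjusted p = 0.016), a call lost without OE replicate 1 (adjusted p = 0.0754) or OE replicate 2 (adjusted p = 0.0503), while with the trend removed it was 0.54 (adjusted p = 5.52e-05). TAP2 fell in KO cells, from 38.0 ± 1.85 to 24.3 ± 2.44 CPM (-0.64 ± 0.13, adjusted p = 0.000195), and its OE value was -0.03 ± 0.12. KO against OE it was -0.61 ± 0.13 (adjusted p = 0.000265). About 32.2% of TAP2's exon bases are shared with another annotated gene, which makes its count uncertain. Tapasin (TAPBP) measured 166, 188 and 193 CPM in control, 188, 174 and 174 CPM in KO and 178, 151 and 147 CPM in OE libraries and overlapped between groups. Its KO value was -0.03 ± 0.09 and turned to 0.21 (adjusted p = 0.0302) with the trend removed, and KO against OE it was 0.17 ± 0.09, or 0.43 (adjusted p = 5.13e-05) with the trend removed.

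ERAP2, an aminopeptidase that trims peptides to class I length (ENSG00000164308, chromosome 5, 96875986 to 96919703), rose in KO cells and fell in OE cells. Its level was 66.8, 67.7 and 60.0 CPM in control, 86.4, 84.3 and 91.3 CPM in KO and 51.2, 47.5 and 49.4 CPM in OE libraries. No libraries of different groups overlapped. The changes were 0.43 ± 0.09 (adjusted p = 0.000432) and -0.39 ± 0.09 (adjusted p = 0.00377), and KO against OE the difference was 0.82 ± 0.09 (adjusted p = 7.87e-08). Its neighbour ERAP1, the other trimming enzyme, measured 31.8, 32.9 and 42.02 CPM in control, 34.6, 39.6 and 41.3 CPM in KO and 50.9, 42.03 and 38.7 CPM in OE libraries and passed no test.

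**Figure D3:**
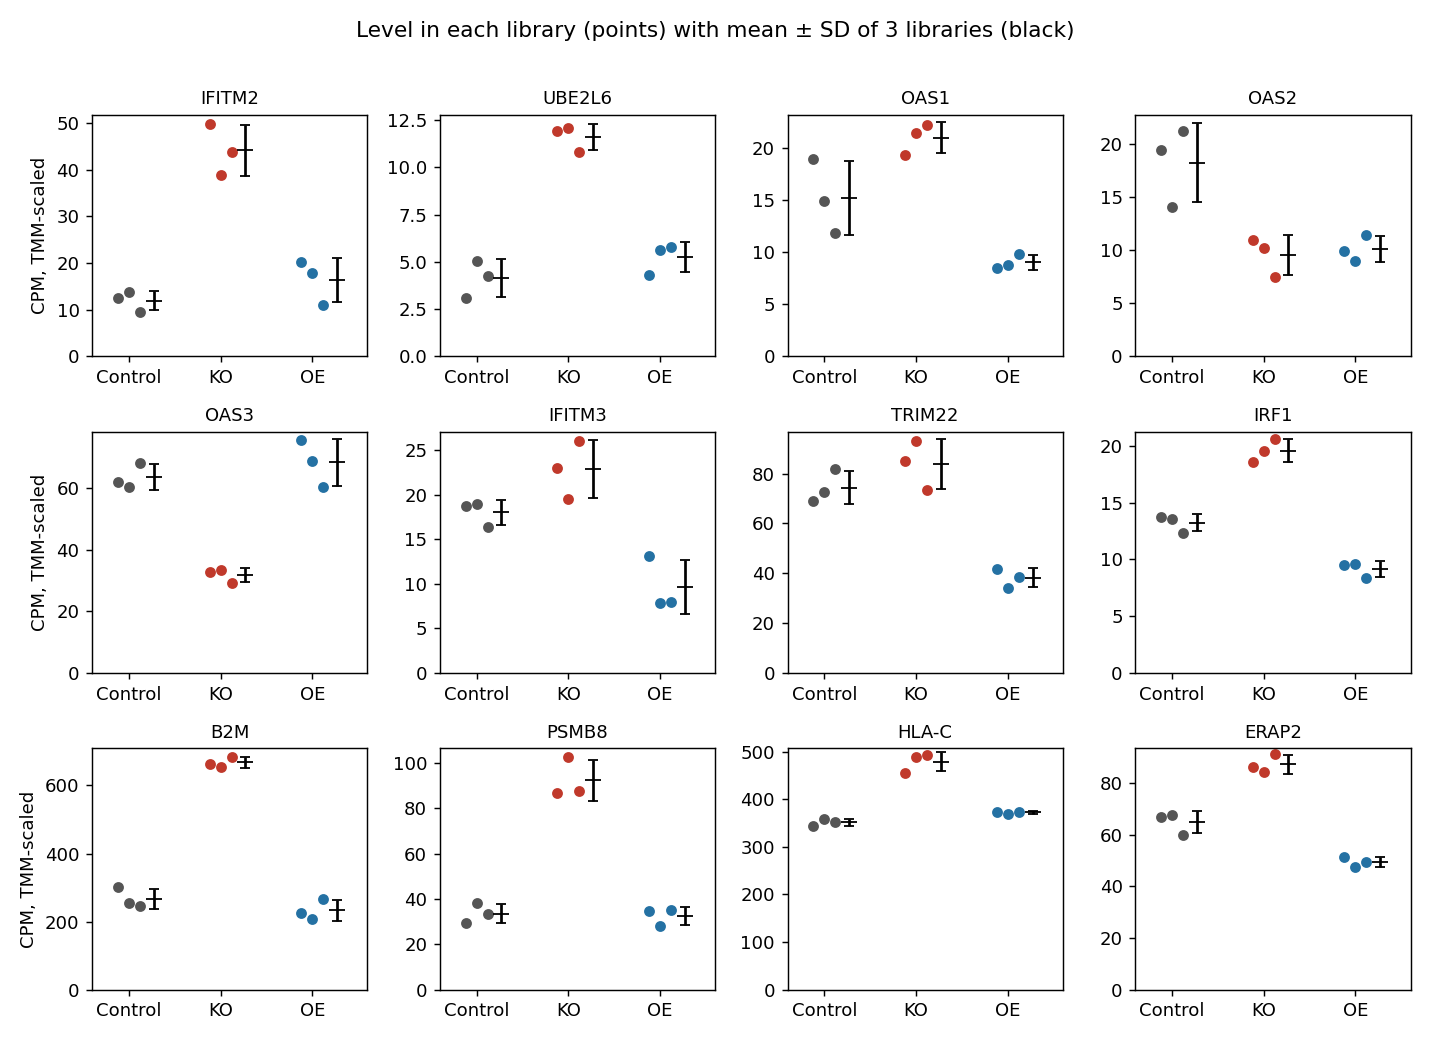
Level (CPM, linear y axis from 0) of selected members in each library (points), with the mean ± SD of 3 libraries in black. B2M and PSMB8 stand apart in the KO libraries, ERAP2 has 3 separate levels, and OAS3 falls in KO while TRIM22 falls in OE.

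Among antiviral genes, the IFITM proteins, membrane proteins that hinder viral fusion, moved in different ways. IFITM2 (ENSG00000185201, chromosome 11, 307631 to 315272) measured 12.6, 13.7 and 9.55 CPM in control, 49.8, 38.9 and 43.8 CPM in KO and 20.1, 17.8 and 11.01 CPM in OE libraries. It was 3.69-fold higher in KO cells (1.88 ± 0.19, adjusted p = 1.56e-08), the largest change among members against control cells. Its OE value of 0.43 ± 0.19 missed the threshold (adjusted p = 0.128), and without OE replicate 3 it was 0.68 with adjusted p = 0.00551. KO against OE, IFITM2 was higher by 1.45 ± 0.18 (adjusted p = 2.77e-07). IFITM3 measured 18.8, 19.0 and 16.4 CPM in control, 23.0, 19.5 and 26.0 CPM in KO and 13.2, 7.86 and 7.95 CPM in OE libraries. All OE libraries were lower, and IFITM3 fell in OE cells by 0.92 ± 0.19 on the log2 scale (adjusted p = 0.00117). Its KO value of 0.33 ± 0.18 did not pass and turned to -0.10 with the trend removed. KO against OE, IFITM3 was higher by 1.25 ± 0.19 (adjusted p = 5.49e-06), or 0.79 with the trend removed. These genes lie together on chromosome 11 and share sequence: 24.2% of IFITM2's 75-base stretches occur in transcripts of another gene, and 8.05% of IFITM3's, so how reads were split between them is uncertain. Another annotated gene also shares 24.9% of IFITM3's exon bases. IFITM1 had 0 reads in control and KO and 4 in OE cells and was not tested. Tetherin (BST2), which holds virus particles to the cell surface, had 4, 4 and 2 reads and was not tested.

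The OAS family makes 2-5A, the activator of RNase L, on sensing double-stranded RNA, and its clustered members OAS1, OAS3 and OAS2 on chromosome 12 diverged. OAS1 measured 18.9, 14.9 and 11.8 CPM in control, 19.3, 21.4 and 22.2 CPM in KO and 8.41, 8.77 and 9.77 CPM in OE libraries. KO libraries were all higher and OE libraries all lower than the control libraries. It rose in KO cells (0.46 ± 0.17, adjusted p = 0.0297) and fell in OE cells (-0.75 ± 0.18, adjusted p = 0.00444), and KO against OE the difference was 1.21 ± 0.18 (adjusted p = 4.14e-06). The KO call was lost without control replicate 2 or 3 or KO replicate 2 or 3 (adjusted p = 0.0755 to 0.180), and the OE call without control replicate 1 (-0.56, adjusted p = 0.0563). OAS3, which makes long 2-5A chains (ENSG00000111331, 112938444 to 112973251), measured 62.0, 60.4 and 68.2 CPM in control, 32.7, 33.3 and 29.3 CPM in KO and 75.7, 68.8 and 60.4 CPM in OE libraries. It was low in every KO library, 1.99-fold below control (-0.995 ± 0.11, adjusted p = 9.14e-08), or -0.59 with the trend removed. Its OE value was 0.10 ± 0.10 (adjusted p = 0.558), and KO against OE it was -1.10 ± 0.11 (adjusted p = 1.12e-08), or -0.71 with the trend removed. OAS2 fell in both KO (-0.92 ± 0.20, adjusted p = 0.000474) and OE cells (-0.85 ± 0.19, adjusted p = 0.00267), with means from 18.2 ± 3.76 CPM to 9.54 ± 1.85 and 10.1 ± 1.22 CPM. OASL, which amplifies RIG-I signalling, was higher in KO than OE cells (0.87 ± 0.30, adjusted p = 0.018) and missed the threshold against control (0.71 ± 0.30, adjusted p = 0.0542). That OASL call was lost without KO replicate 1 or 2 or OE replicate 1 or 2 (adjusted p = 0.0554 to 0.110).

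In the ISG15 system, which attaches a ubiquitin-like protein to targets, the conjugating enzyme UBE2L6 rose while the modifier did not pass. UBE2L6 measured 3.06, 5.06 and 4.27 CPM in control, 11.9, 12.1 and 10.8 CPM in KO and 4.32, 5.64 and 5.76 CPM in OE libraries, 2.81-fold higher in KO than control (1.49 ± 0.24, adjusted p = 1.80e-05). All KO libraries exceeded all others, and KO against OE the difference was 1.14 ± 0.23 (adjusted p = 0.00021). ISG15 measured 13.8, 11.6 and 13.7 CPM in control, 16.8, 17.4 and 13.7 CPM in KO and 12.7, 9.58 and 13.6 CPM in OE libraries, where the control libraries overlapped both other groups and the lowest KO library lay just above the highest OE library. Its values were 0.30 ± 0.18 in KO against control (adjusted p = 0.165) and 0.41 ± 0.18 in KO against OE cells (adjusted p = 0.0505). HERC6, a HECT-type ubiquitin ligase, measured 26.2, 23.8 and 24.5 CPM in control, 20.1, 21.0 and 17.8 CPM in KO and 24.7, 22.4 and 24.2 CPM in OE libraries. It was lower in KO cells (-0.33 ± 0.13, adjusted p = 0.041), a call lost with the trend removed (-0.32, adjusted p = 0.0527) and without any control replicate or KO replicate 1 or 3 (adjusted p = 0.0577 to 0.130).

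Of 4 IFIT genes, whose proteins bind viral RNA, 2 were higher in KO cells. IFIT2 measured 14.0, 15.6 and 12.2 CPM in control, 19.3, 21.9 and 16.6 CPM in KO and 17.7, 11.1 and 12.4 CPM in OE libraries. IFIT5 measured 19.3, 17.6 and 17.9 CPM in control, 21.3, 26.1 and 25.5 CPM in KO and 18.7, 21.8 and 25.8 CPM in OE libraries. Both passed in KO against control cells (0.47 ± 0.18, adjusted p = 0.0348, and 0.41 ± 0.15, adjusted p = 0.0245), and with the trend removed they did not, at 0.22 (adjusted p = 0.34) and 0.07 (adjusted p = 0.717). IFIT2 also lost the call without control replicate 1 or 3 or KO replicate 1 or 2 (adjusted p = 0.0711 to 0.158), and IFIT5 without control replicate 2 or 3 or KO replicate 2 or 3 (adjusted p = 0.0612 to 0.0975). All KO libraries lay above all control libraries for both genes. In KO against OE cells IFIT2 (0.50 ± 0.18, adjusted p = 0.0217) and IFIT3 (0.51 ± 0.20, adjusted p = 0.0329) passed. Both calls were lost with the trend removed (0.26 and 0.13), without KO replicate 2, OE replicate 2 or OE replicate 3 (adjusted p = 0.0741 to 0.149) and, for IFIT3, without KO replicate 3 (adjusted p = 0.0896). IFIT1, with means of 3.08 to 3.97 CPM, passed no test.

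The IFI genes were low in abundance. IFI6, a mitochondrial and endoplasmic reticulum protein that inhibits virus replication, measured 5.78, 4.53 and 5.84 CPM in control, 7.71, 10.3 and 11.5 CPM in KO and 3.98, 4.74 and 5.62 CPM in OE libraries. It rose in KO cells (0.86 ± 0.25, adjusted p = 0.00501), with no overlap with control, and was at 0.36 (adjusted p = 0.229) with the trend removed. KO against OE it was 1.02 ± 0.24 (adjusted p = 0.00105), or 0.47 (adjusted p = 0.101) with the trend removed. IFI35 measured 9.50, 8.11 and 10.1 CPM in control, 12.1, 10.9 and 11.3 CPM in KO and 5.87, 6.05 and 12.2 CPM in OE libraries and passed no test. IFI44 and IFI44L, adjacent genes on chromosome 1, were called only in KO against OE cells (2.03 ± 0.57, adjusted p = 0.00379, and 1.46 ± 0.59, adjusted p = 0.0369), from means under 2.2 CPM, and IFI44L lost its call without KO replicate 1 (adjusted p = 0.272), OE replicate 1 (0.0953) or OE replicate 2 (0.161). IFI27 was at 0.932 to 1.58 CPM and passed no test. XAF1, with 2 reads in all 9 libraries, was not tested.

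Among restriction factors, TRIM22 and SAMD9 fell in OE cells, while the RNA sensor IFIH1 fell in KO cells. TRIM22, a ubiquitin ligase that restricts several viruses (ENSG00000132274, chromosome 11, 5689697 to 5737089), measured 69.0, 72.5 and 81.7 CPM in control, 85.1, 93.2 and 73.4 CPM in KO and 41.8, 34.2 and 38.5 CPM in OE libraries. Every OE library was lower than every other library, and TRIM22 fell by 0.96 ± 0.11 (log2) against control (adjusted p = 9.79e-07). KO against OE, the difference was 1.14 ± 0.11 (adjusted p = 5.97e-09). SAMD9, a poxvirus restriction factor and, at 93.2 CPM per kb in control cells, the most abundant antiviral member per length, measured 660, 616 and 640 CPM in control, 619, 672 and 647 CPM in KO and 546, 441 and 350 CPM in OE libraries. OE libraries were all lower and spread widely, with a change of -0.52 ± 0.11 (adjusted p = 0.001). KO against OE, SAMD9 was higher by 0.54 ± 0.11 (adjusted p = 0.000143). Its neighbour SAMD9L passed no test. IFIH1, the sensor of long double-stranded RNA, was lower in KO cells (-0.45 ± 0.16, adjusted p = 0.0197), a call lost without control replicate 1 or 2 or KO replicate 2 (adjusted p = 0.0521 to 0.115). Its KO against OE call (-0.43 ± 0.15, adjusted p = 0.0208) was lost without KO replicate 2 (adjusted p = 0.115) or OE replicate 1 (adjusted p = 0.0819). MX1, the dynamin-like restriction factor, had means of 2.21 to 3.28 CPM and passed no test.

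PARP9 and DTX3L form a complex in interferon signalling and DNA repair, and PARP14 is a related ADP-ribosyltransferase. DTX3L measured 43.3, 36.4 and 46.1 CPM in control, 36.4, 40.4 and 26.2 CPM in KO and 40.7, 42.8 and 40.8 CPM in OE libraries and passed no test as counted, with -0.28 ± 0.13 in KO cells. With the trend removed it was -0.31 in KO against control (adjusted p = 0.0485) and -0.31 in KO against OE cells (adjusted p = 0.044). PARP14 measured 36.2, 39.9 and 35.4 CPM in control, 26.1, 29.04 and 27.1 CPM in KO and 32.8, 32.3 and 23.3 CPM in OE libraries. It fell in KO cells (-0.44 ± 0.13, adjusted p = 0.00875), and with the trend removed the call was lost (-0.22, adjusted p = 0.159). PARP9 was higher in KO than OE cells (0.30 ± 0.13, adjusted p = 0.0461), a call lost without control replicate 1 or 3, any KO replicate or OE replicate 2 or 3 (adjusted p = 0.0503 to 0.132).

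Transcription factors of the pathway also split. STAT2, a transcription factor of the type I response, measured 70.7, 79.2 and 77.8 CPM in control, 47.1, 54.7 and 52.6 CPM in KO and 64.1, 63.1 and 54.1 CPM in OE libraries. Both altered groups lay below the control libraries. It fell in KO (-0.56 ± 0.10, adjusted p = 6.93e-05) and OE cells (-0.33 ± 0.10, adjusted p = 0.0207), the OE call being lost without control replicate 2 or 3 or OE replicate 3 (adjusted p = 0.0787 to 0.105). IRF1 measured 13.8, 13.6 and 12.4 CPM in control, 18.6, 19.5 and 20.6 CPM in KO and 9.52, 9.58 and 8.31 CPM in OE libraries. No libraries of different groups overlapped, and 22.1% of IRF1's exon bases are shared with 2 other annotated genes. IRF1 rose in KO (0.56 ± 0.16, adjusted p = 0.00525, or 0.91 with the trend removed) and fell in OE cells (-0.54 ± 0.17, adjusted p = 0.0244), the OE call being lost without control replicate 1 or 2 or OE replicate 3 (adjusted p = 0.0795 to 0.0973). KO against OE, IRF1 was higher by 1.10 ± 0.16 (adjusted p = 4.38e-06). IRF7, the amplifier of type I interferon production, had means of 3.07 to 4.82 CPM and passed no test. IRF9 had 13, 1 and 8 reads in control, KO and OE cells (22 in all) and was not tested. It had the most reads of the untested members. Among the tested members with the fewest reads were IFI44 with 92, IFI27 with 96 and NLRC5 with 29, 10 and 57 in control, KO and OE cells.

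Some members did not pass edgeR's test with all 9 libraries and TMM scaling but passed when 1 library was left out. In KO against control cells these were IFIT3 without KO replicate 1 (0.59, adjusted p = 0.0261), PSMB9 without KO replicate 3 (0.88, adjusted p = 0.0227), DTX3L without control replicate 2 or KO replicate 2 (adjusted p = 0.0463 and 0.0274) and OASL without control replicate 1, KO replicate 3 or OE replicate 3 (adjusted p = 0.0149 to 0.0458). In OE against control cells, beside B2M and IFITM2, they were ERAP1 without control replicate 3 or OE replicate 3 (adjusted p = 0.0407 and 0.0386) and PARP14, SAMD9L and TAPBP without OE replicate 1 (adjusted p = 0.0425, 0.0363 and 0.0274). In KO against OE cells they were IFI35 without OE replicate 3 (0.93, adjusted p = 0.00135), IRF7 without KO replicate 1 (adjusted p = 0.0449), ISG15 without KO replicate 3 or OE replicate 3 (adjusted p = 0.0289 and 0.03), PSMB9 without KO replicate 3 or OE replicate 1 (adjusted p = 0.0118 and 0.0216), DTX3L without KO replicate 2 (adjusted p = 0.0278), SAMD9L and TAPBP without OE replicate 1 (adjusted p = 0.0406 and 0.0206) and STAT2 without KO replicate 2 or OE replicate 3 (adjusted p = 0.04996 and 0.0112).

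**Figure D4:**
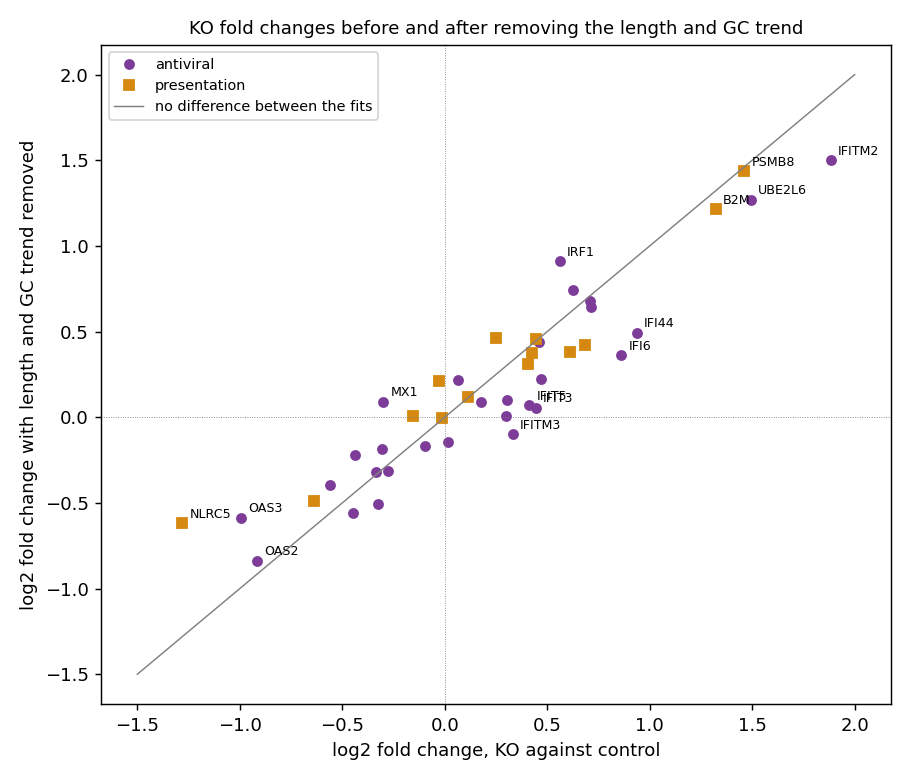
Log2 fold change in KO against control cells before (x axis) and after (y axis) removal of the length and GC trend, with 1 point per tested member. B2M, PSMB8, IFITM2 and UBE2L6 stayed above 1, while IFI6, PSMB10, IFIT2, IFIT3 and IFIT5 moved towards 0.

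Other genes of the pathway were read from lists kept apart from the members. Of 6 interferon ligands, none was tested: IFNB1 and IFNL1, IFNL2 and IFNL3 had no reads, which allows up to 0.111 CPM over the control, 0.122 over the KO and 0.0947 over the OE libraries (3 counts). This bound takes reads as independent. Mates of a read pair may have been counted separately, so the bound may be too low. IFNE had 10, 8 and 6 reads and IFNK 0, 0 and 2. In KO against control cells, 2 of 11 tested receptor and signalling genes were higher and 3 lower (median log2 fold change -0.15), beside 26.0% higher and 25.9% lower over all genes, and with the trend removed 3 were higher and 1 lower (median -0.0057). IFNGR1, the ligand-binding chain of the interferon-gamma receptor, rose from 49.99 ± 10.6 to 105 ± 9.60 CPM (1.06 ± 0.12, adjusted p = 1.96e-07), and TYK2, a kinase of the type I receptor, fell by 0.62 ± 0.12 (adjusted p = 0.000104). With the trend removed, IFNGR1 was at 0.66 and TYK2 at -0.16 (adjusted p = 0.222). Of 10 sensing genes, 2 were higher and 5 lower (median -0.24, or -0.33 with the trend removed). MAVS, the adaptor of cytosolic RNA sensors, fell from 279 ± 16.4 to 127 ± 7.99 CPM (-1.13 ± 0.09, adjusted p = 1.24e-09; -0.62 with the trend removed) and TLR3, the endosomal RNA receptor, rose by 0.86 ± 0.18 (adjusted p = 0.000377).

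Of 22 tested other interferon-stimulated genes, 2 were higher and 6 lower in KO cells (median -0.13), beside 26.0% higher and 25.9% lower over all genes. With the trend removed 4 were higher and 3 lower (median -0.03), and PML, singled out after its values were seen, went from a lower call (-0.40, adjusted p = 0.00142) to a higher call (0.30, adjusted p = 0.00767). EIF2AK2 (PKR, the RNA-activated kinase) fell by 0.82 ± 0.10 (adjusted p = 3.22e-07) and ADAR, which edits double-stranded RNA, by 0.50 ± 0.08 (adjusted p = 1.20e-05), or 0.14 with the trend removed (adjusted p = 0.0975). Of 5 tested interferon-gamma genes, 1 was higher and 1 lower (median 0.12, or -0.16 with the trend removed), beside the same shares over all genes. GBP2, a guanylate-binding protein, rose from 1.76 ± 0.887 to 8.27 ± 1.19 CPM (2.22 ± 0.37, adjusted p = 2.75e-05) and WARS1, the tryptophanyl-tRNA synthetase, fell by 0.46 ± 0.08 (adjusted p = 5.12e-05), or 0.24 with the trend removed. Of 10 tested other presentation genes, 4 were higher and 1 lower (median 0.32), and with the trend removed also 4 higher and 1 lower (median 0.17). The proteasome activator subunits PSME1 and PSME2, which open the proteasome gate, rose by 1.15 ± 0.11 (adjusted p = 1.06e-08) and 0.70 ± 0.11 (adjusted p = 1.75e-05).

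In OE against control cells, where 9.28% of all genes were higher and 9.34% lower, receptor and signalling genes had 2 lower of 11, JAK2 (-0.55 ± 0.13, adjusted p = 0.00313) and IFNGR1 (-0.45 ± 0.13, adjusted p = 0.0143). Of the sensing genes MAVS was lower (-0.33 ± 0.09, adjusted p = 0.0125). Of the other interferon-stimulated genes 3 of 22 were lower, led by APOL2 (-0.61 ± 0.12, adjusted p = 0.000913) and APOL1 (-0.64 ± 0.17, adjusted p = 0.0106), apolipoproteins of the L family. WARS1 was higher (0.67 ± 0.08, adjusted p = 1.73e-06). Among other presentation genes, RFX5, a factor of the RFX complex on class I and class II promoters, fell by 0.79 ± 0.12 (adjusted p = 3.03e-05) and RFXAP, its partner, rose by 1.06 ± 0.37 (adjusted p = 0.0468).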

How the data were processed

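Poly-A selected RNA of 9 libraries was sequenced as paired reads of 150 bases, per the labels' protocols. Each deposited file holds raw counts per gene, which the authors obtained from featureCounts 1.5.2 against Ensembl release 101 on GRCh38, per the file headers; the submitters' processing notes name HISAT2 1.03 and featureCounts 0.1.0. The header's command records no option for strand, read pairs or multi-mapping reads, so overlapping and antisense genes cannot be told apart, and 22 of the 47 members share exon bases with another gene. Groups followed the labels' genotype.

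Counts were tested with edgeR 4.0.16 (R 4.3.3, limma 3.58.1, DESeq2 1.42.0) after filterByExpr with a minimum count of 10 (13390 genes) and TMM scaling, in a quasi-likelihood fit of all 9 libraries with group as the only term. Tests were two-sided, and Benjamini-Hochberg adjusted p under 0.05 over all tested genes counted as changed. An alternative fit entered, as an offset, a loess surface (span 0.3) of each library over exon length and GC content (GENCODE 29). Other alternatives were DESeq2, limma-voom, other filters, leaving out single libraries and the replicate number as a block. The test was checked on simulated counts.

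Members, lists and tests were chosen with earlier results of these data known. Values by library are given for changed members of at least 2-fold and 5 CPM and for the 2 most abundant of each role, and pathway genes for at most the 2 smallest p of a list. HLA-F is given by library outside this rule. Same-numbered libraries were checked for pairing by the correlation of their deviations, which ran from -0.077 to 0.066, so numbers were not used to pair samples. Intervals from 3 counts cover counting error only and take reads as independent. With no read-pair option recorded, mates of a pair may have been counted separately, and the intervals may then be too narrow.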

Additional observations from a re-analysis of the deposited data

How the results depend on the processing

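No called value of the 47 members reversed direction under any alternative. Removing the length and GC trend left 4 antiviral members higher in KO against control cells, also with the replicate block, and with both 2 presentation members were lower in OE cells. Values that turned sign had not passed the test. With the trend removed they were, in KO against control cells, IFITM3 -0.10, MX1 0.092 (0.094 with the block), SAMD9 -0.14, TAPBP 0.21 and HLA-F 0.0050 (0.0080), and in KO against OE cells IFIT1 -0.16 (-0.19), IFIT5 -0.17, OAS2 0.011 (0.026) and PARP14 0.11. With no filter they were SAMD9 -0.0012 (KO), IFIH1 0.0015 and DTX3L 0.00061 (OE) and IFIT1 -0.011 (KO against OE), the last also with limma-voom (-0.030) and the replicate block (-0.012). Replicate numbers do not pair the libraries. The block lost TAP1 (adjusted p = 0.0507) in KO cells and IFI44L (0.0554) and PARP9 (0.0538) in KO against OE cells, where it gained ISG15 (0.0495) and IFI35 (0.043). With no filter the calls of HERC6, IFIT5, OAS1 and TAP1 in KO, IRF1 in OE and IFIT3, PARP9 and TAP1 in KO against OE cells were lost (adjusted p = 0.0504 to 0.147). The DESeq2 test lost HERC6, TAP1 (KO) and PARP9 (KO against OE), and limma-voom lost HERC6 (adjusted p = 0.0506 to 0.0594). Calls were gained as well. With limma-voom they were PARP14 in OE (adjusted p = 0.0385) and ISG15 in KO against OE cells (0.0443). ISG15 also passed with DESeq2 size factors in place of TMM (0.0499). OASL passed in KO cells with a stricter filter (0.0415) and with only the 2 groups compared (0.0485), where PARP9 was lost in KO against OE cells (0.0534). PSMB9 passed in KO against OE cells with no filter (0.0468).

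Leaving out each library gave 16 to 22 changed members in KO against control, 6 to 11 in OE against control and 20 to 26 in KO against OE cells. In that order, antiviral members higher ranged from 4 to 8, 0 to 1 and 9 to 14, and lower from 4 to 6, 5 to 9 and 1 to 3. Presentation members higher ranged from 5 to 7, 0 to 1 and 6 to 8, and lower from 1 to 1, 1 to 2 and 2 to 3. Calls kept in all were 14 of 21, 5 of 8 and 18 of 26. Values not called that crossed 0 ranged, in KO against control cells HLA-B -0.46 to 0.19, IFIT1 -0.62 to 0.027, PARP9 -0.021 to 0.19, SAMD9 -0.014 to 0.045, SAMD9L -0.24 to 0.035 and TAPBP -0.094 to 0.010. They ranged, in OE against control cells DTX3L -0.10 to 0.057, HLA-B -0.079 to 0.34, IFI27 -0.23 to 0.64, IFI35 -0.62 to 0.0048, IFIH1 -0.090 to 0.063, IFIT1 -0.64 to 0.013, IFIT2 -0.24 to 0.10, IFIT3 -0.19 to 0.034, ISG15 -0.22 to 0.025, MX1 -0.020 to 0.54, OASL -0.34 to 0.091, PSMB8 -0.13 to 0.059, PSMB9 -0.38 to 0.15, TAP1 -0.12 to 0.044 and TAP2 -0.14 to 0.043. They ranged, in KO against OE cells HLA-B -0.60 to 0.066, IFIT1 -0.28 to 0.33 and OAS2 -0.18 to 0.062. The causes were not tested. With 8 tested members under 5 CPM in all groups, depth limits those genes most.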
